A study of Mus musculus with 8 samples.

Results

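The miR-99/100 and miR-125 families are 2 groups of related microRNAs encoded side by side with let-7 genes at 3 places in the mouse genome. The 10 mature products examined here were taken by name from the deposited files: mmu-miR-99a-5p, mmu-miR-99a-3p, mmu-miR-99b-5p, mmu-miR-99b-3p, mmu-miR-100-5p, mmu-miR-125a-5p, mmu-miR-125a-3p, mmu-miR-125b-5p, mmu-miR-125b-1-3p and mmu-miR-125b-2-3p, out of 1915 names in all. The prefix mmu, for mouse, is left out below. The samples were prefrontal cortex from 12-week-old mice on the C57BL/6 background, read by small RNA sequencing in 4 wild-type libraries (replicates 1, 2, 3 and 4) and 4 libraries from Fkbp5 knockout mice (replicates 1, 2, 4 and 5). The Fkbp5 protein is an Hsp90 co-chaperone and a brake on glucocorticoid receptor signalling. The labels give no treatment and no further allele, do not say how the knockout was made or whether it is limited to some cells, and do not say whether each library came from its own mouse. The p-values below therefore measure the spread between these libraries. The assay does not read Fkbp5 messenger RNA, so the genotypes rest on the labels alone.

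A microRNA hairpin is cut into a duplex of 2 strands, one from its 5′ arm (5p) and one from its 3′ arm (3p). The strand that is kept guides Argonaute to messenger RNAs, mainly by pairing of its bases 2 to 8, the seed, and the other strand is mostly degraded. miR-99/100 microRNAs are known for repressing Mtor and other growth genes, and miR-125 microRNAs, mammalian relatives of worm lin-4, are abundant in neurons and astrocytes and are known for repressing Lin28.

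The guide strands are shown first, since the families are defined by their seeds. All sequences are from the RefSeq tables for GRCm38.p6, which held mature entries for all 10 members, and capitals mark bases 2 to 8.
miR-99a-5p: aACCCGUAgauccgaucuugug
miR-100-5p: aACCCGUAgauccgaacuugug
miR-99b-5p: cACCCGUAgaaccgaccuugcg
miR-125a-5p: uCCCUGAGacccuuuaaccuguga
miR-125b-5p: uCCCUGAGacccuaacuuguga

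The 3 guides of the miR-99/100 family shared the seed ACCCGUA, and no other tested miRNA with an entry in these tables had it. miR-99a-5p and miR-100-5p were the closest pair, with 21 of 22 bases identical and U16A as the one substitution, counted from 1 at the 5′ end with the miR-99a-5p base first. miR-99b-5p differed from miR-99a-5p at 4 positions (A1C, U11A, U16C and U21C). Reads of miR-99a-5p and miR-100-5p are told apart by that base alone, and how the submitters treated mismatches is not given in the sources used here. The 2 miR-125 guides shared the seed CCCUGAG and their first 13 bases. Of the other tested miRNAs with an entry, 1 had the same seed, miR-351-5p from the X chromosome.

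The 3p strands are printed because they tell apart hairpins whose guides are identical.
miR-99a-3p: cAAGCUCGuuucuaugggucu
miR-99b-3p: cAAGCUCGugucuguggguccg
miR-125a-3p: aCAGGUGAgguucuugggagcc
miR-125b-1-3p: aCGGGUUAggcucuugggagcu
miR-125b-2-3p: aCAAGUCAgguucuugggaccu

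miR-99a-3p and miR-99b-3p shared the seed AAGCUCG, while the 3 miR-125 3p strands each had a seed of their own. miR-125b-5p is made from 2 hairpins, Mir125b-1 and Mir125b-2, so its level cannot be divided between them, but their 3p strands differ and were counted under separate names.

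Positions are on GRCm38, the assembly that the build name mm10 refers to. On chromosome 16, Mir99a (77598936 to 77599000), Mirlet7c-1 and Mir125b-2 (77646273 to 77646343) lie on the plus strand in introns of the long noncoding gene Mir99ahg, with 47.3 kb between the first and the last. On chromosome 9, Mir100 (41531425 to 41531504), Mirlet7a-2 and Mir125b-1 (41581926 to 41582002) lie in introns of the noncoding gene 3110039I08Rik, with 50.4 kb between Mir100 and Mir125b-1. On chromosome 17 the same order is compact. Mir99b (17830188 to 17830257) and Mirlet7e are in introns of Spaca6, a protein-coding gene, Mir125a (17830812 to 17830879) overlaps an annotated Spaca6 exon, and only 555 bases separate Mir99b from Mir125a.

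The libraries were alike in size, with deposited totals of 16180699 to 21555993. Values were rescaled between libraries by factors of 0.840 to 1.20, and a miRNA was tested where at least 4 libraries held 10 or more of it after scaling to the median total. This left 599 miRNAs, among them 9 of the 10 members. miR-99a-3p was not tested. The neuronal miRNA miR-128-3p, the most abundant of the tissue markers examined, ran from 3534479 to 5294365 and miR-124-3p from 533567 to 875915. Markers of other cells were present in every library. Of 4 epithelial or olfactory miRNAs all had a lower mean log2 value in the knockout and 0 passed a test, and miR-200b-3p ranged from 175 in knockout replicate 1 to 2280 in wild-type replicate 2. The part of such markers in the members' values was not tested. Among the other lists 3 of 3 oligodendrocyte, 3 of 3 endothelial or smooth muscle, 2 of 3 blood, 2 of 4 microglial or leukocyte, 2 of 3 striated muscle and 2 of 5 neuronal miRNAs were lower, with 0 past an adjusted p of 0.05. At an unadjusted p under 0.05 there were 2 of these markers, both lower in the knockout. They were miR-219a-5p of oligodendrocytes (log2 fold change -0.60, no overlap between genotypes) and miR-143-3p of smooth muscle (-0.42). Of all 599 tested miRNAs, 276 were lower in the knockout, and 16 of these had an unadjusted p under 0.05 by limma. The genotypes did not overlap for 9 of the 599. Whether the markers exceed these shares was not tested. In bulk tissue, fewer cells of a type and less of a miRNA per cell cannot be told apart.

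The guides of both families were abundant in prefrontal cortex. Together the 10 members took 3.29% ± 0.265 of each wild-type library and 3.56% ± 0.370 of each knockout library (SD, n = 4 each). The 2 miR-125 guides held most of this, with 2.80% ± 0.234 (wild type) and 3.06% ± 0.353 (knockout), while the 3 miR-99/100 guides held 0.475% ± 0.0390 and 0.474% ± 0.0337. Among tested miRNAs miR-125b-5p ranked 10 by abundance, miR-125a-5p 13, miR-99a-5p 37, miR-100-5p 45 and miR-99b-5p 63. These are values per miRNA name, not corrected for how well each sequence is ligated and amplified.

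The members kept one order in all 8 libraries. From high to low it was miR-125b-5p, miR-125a-5p, miR-99a-5p, miR-100-5p, miR-99b-5p, miR-125b-1-3p, miR-125b-2-3p, miR-125a-3p, miR-99b-3p and miR-99a-3p. Between neighbours in this order the ranges over libraries overlapped for 1 pair, miR-125b-2-3p and miR-125a-3p. Within the miR-99/100 guides the chromosome 16 product was thus above the chromosome 9 product, and that above the chromosome 17 product, in every library.

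**Figure D1:**
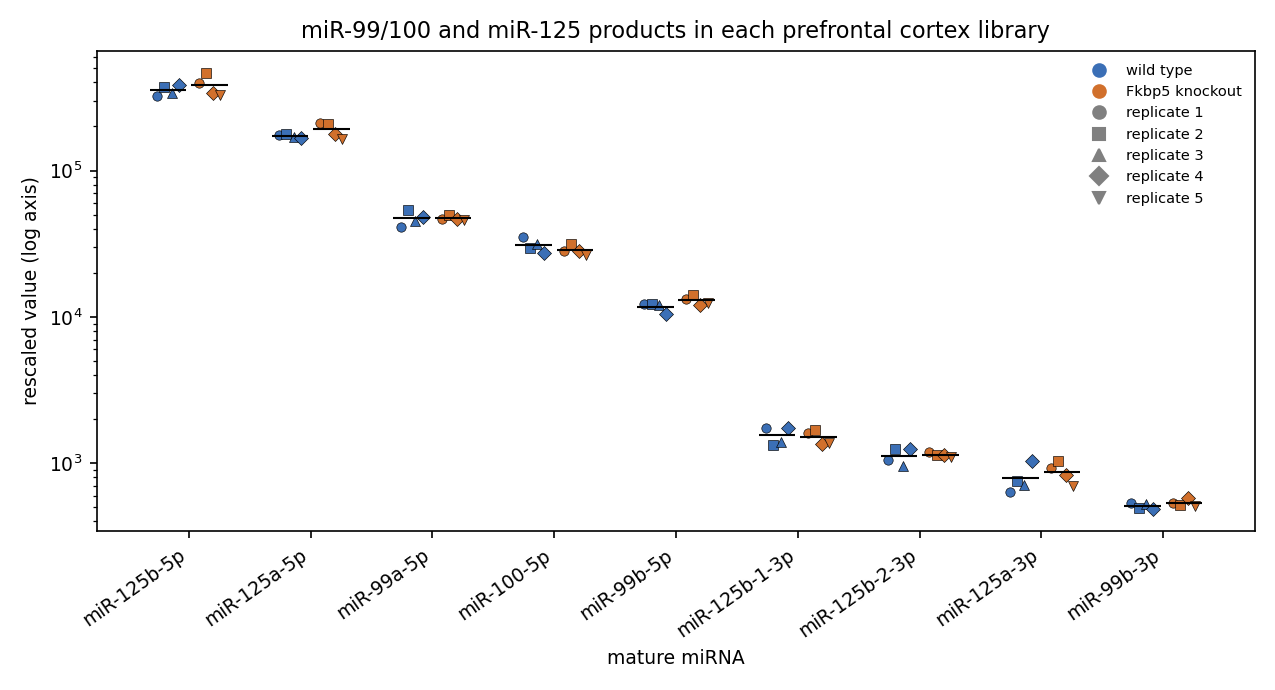
Rescaled values of the 9 tested members (log axis) in each library, wild type in blue and Fkbp5 knockout in orange, with marker shapes for replicate numbers and black bars for group means. The 5 guides lie above 10000 and the 4 3p strands at or below 1753, and the genotypes overlap for every member.

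The comparison of genotypes asks whether these miRNAs differ when Fkbp5 is missing. None of the 9 tested members passed the test. By limma with Benjamini-Hochberg adjustment 0 of 9 members had an adjusted p under 0.05, against 0 of 599 miRNAs (0%). At an unadjusted p under 0.05 there were 0 members, against 24 of all tested miRNAs (4.01%, of which 1.34% higher and 2.67% lower in the knockout), and the genotypes did not overlap for 0 members, against 9 of all (1.5%). Fold changes below are differences of log2(rescaled value + 1), knockout minus wild type. They were above 0 for 7 members and below 0 for 2, where 53.9% of all tested miRNAs were above 0, and their median was 0.08, against 0.016 over all tested miRNAs.

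miR-125b-5p, the most abundant member, had rescaled values of 322429, 374267, 340262 and 384529 in wild-type replicates 1 to 4 and of 399276, 466879, 339208 and 327105 in knockout replicates 1, 2, 4 and 5. Knockout replicates 1 and 2 were above every wild-type library, and knockout replicates 4 and 5 lay within the wild-type range. The log2 fold change was 0.10 ± 0.12 (SE, adjusted p = 0.994 by limma), and without knockout replicate 2 it was -0.0026. miR-125a-5p, which carries the same seed, was at 173850, 177084, 168685 and 167980 in wild type and at 210816, 208720, 177985 and 165437 in the knockout. The same pair of knockout libraries was highest and knockout replicate 5 was lowest of all, with a log2 fold change of 0.14 ± 0.10.

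miR-99a-5p had rescaled values of 40997, 53719, 45185 and 48132 in wild type and of 46334, 49283, 46917 and 45735 in the knockout. The knockout libraries all lay inside the wild-type range, and the log2 fold change was 0.01 ± 0.10. miR-100-5p, 1 base away in sequence, was at 34981, 29571, 31496 and 27284 in wild type and at 28169, 31309, 28159 and 26422 in the knockout. Its highest library was wild-type replicate 1, the same library in which miR-99a-5p was lowest, and its log2 fold change was -0.11 ± 0.10. miR-99b-5p was at 12193, 12231, 12087 and 10387 in wild type and at 13312, 14046, 12121 and 12477 in the knockout. Knockout replicates 1, 2 and 5 were above every wild-type library, knockout replicate 4 was within their range, and the log2 fold change was 0.15 ± 0.10 (adjusted p = 0.994 by limma).

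The 3p strands were present at far lower values. The wild-type mean of miR-125b-1-3p was 1556 and its knockout mean 1504, a log2 fold change of -0.04 ± 0.14. miR-125b-2-3p ran from 958 to 1252 in wild type and from 1103 to 1188 in the knockout, with 0.03 ± 0.12. miR-125a-3p varied most among the tested members, from 636 to 1039 in wild type and from 702 to 1028 in the knockout (0.16 ± 0.17). miR-99b-3p varied least, from 483 to 531 in wild type and from 512 to 583 in the knockout (0.08 ± 0.11). miR-99a-3p had deposited values of 1, 2, 0 and 1 in wild type and 3, 0, 1 and 2 in the knockout, too low for any comparison.

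In the fit to all 8 libraries the data bound these differences closely. The 95% intervals of the 9 tested members ran from 0.789-fold at the lowest to 1.46-fold at the highest. All 9 intervals thus excluded a 1.5-fold change in either direction, as those of 338 of the 599 tested miRNAs did. The highest limit was that of miR-125a-3p, whose log2 fold change ran from 0.077 to 0.29 with 1 library left out. The intervals of fits with a library left out are not given here. The median residual SD of the members was 0.129 on the log2 scale, against 0.259 over all tested miRNAs. The members are abundant, and the lower spread of abundant miRNAs was not separated from this difference.

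**Figure D2:**
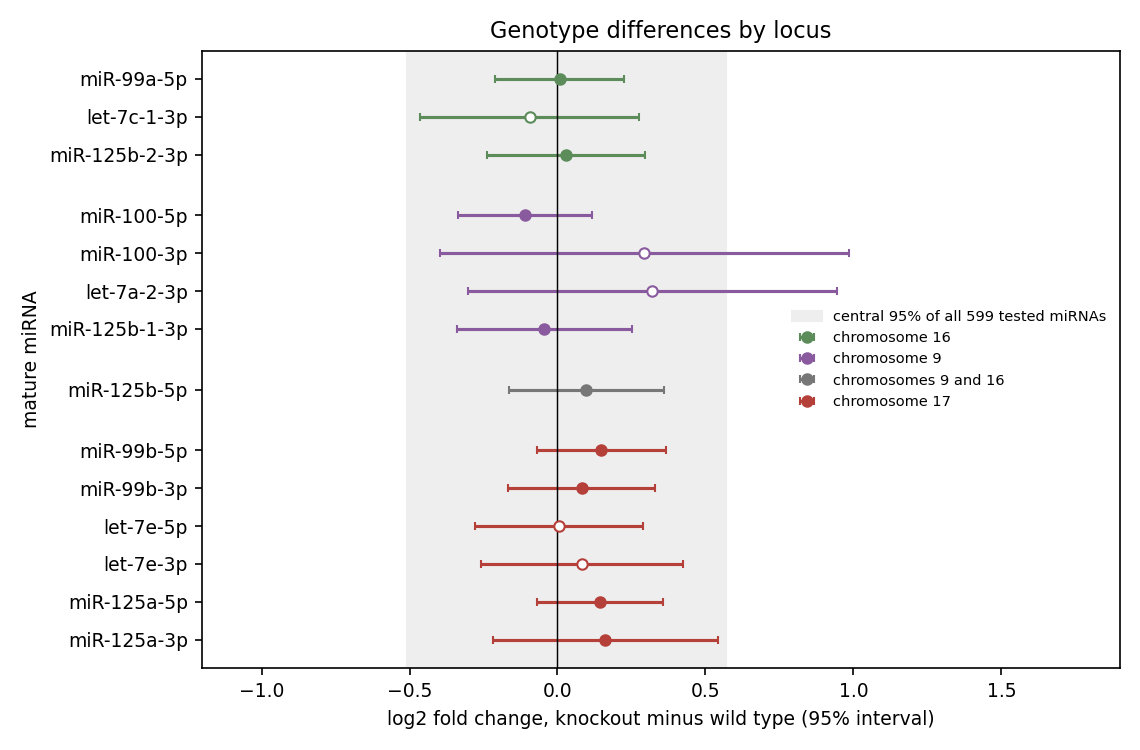
Log2 fold changes (knockout minus wild type) with 95% intervals for the 9 tested members (filled) and for 5 other products of the same loci (open), coloured by chromosome. The grey band holds the central 95% of all 599 tested miRNAs, from -0.51 to 0.57, and every interval crosses 0.

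By locus, the 4 products of Mir99b and Mir125a on chromosome 17 all had fold changes above 0, with a median of 0.15. Their unadjusted p ran from 0.163 to 0.485, and all 4 had an adjusted p of 0.994 by limma. The 2 tested members made only on chromosome 16 were near 0, with a median of 0.02, and the 2 made only on chromosome 9 were below 0, with a median of -0.08. The difference between loci was not tested. The let-7 products and miR-100-3p of these loci were also compared. Of 7 tested, 5 were above 0 and 2 below, with a median of 0.02 and 0 at an unadjusted p under 0.05. let-7e-5p, which lies between miR-99b and miR-125a on the same strand, had wild-type values of 151351 ± 11923 and knockout values of 153552 ± 29868 (SD, n = 4 each). Its log2 fold change, 0.0047, was below those of both neighbours. let-7a-5p and let-7c-5p are also made at other loci, so their values do not report on chromosomes 9 and 16 alone.

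The miR-99b/let-7e/miR-125a locus lies on the chromosome of Fkbp5, 10.6 Mb from it (Fkbp5 spans 28398753 to 28486149 on chromosome 17). The labels give no more on the strain origin of this chromosome than the background C57BL/6. Positions were found for 510 of the 599 tested miRNAs, of which 15 are encoded only on chromosome 17. Their fold changes were above 0 for 11 and below 0 for 4, with a median of 0.08, and 0 had an unadjusted p under 0.05. Without the 4 members, 7 of the other 11 were above 0, with a median of 0.0086. The 3 tested miRNAs nearest to Fkbp5 all had fold changes below 0: miR-3083-5p (-0.17) and miR-3083-3p (-0.30), 1.45 Mb away, and miR-3082-3p (-0.26), 2.57 Mb away. All 3 were low, with group means between 18.2 and 40.2, and none had an unadjusted p under 0.05. The miR-3083 products share a hairpin. The next 3 by distance, still nearer than the miR-99b locus, had fold changes above 0: miR-219a-1-3p (0.0086), miR-877-3p (0.63) and miR-877-5p (0.093). The miR-877 products also share a hairpin.

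**Figure D3:**
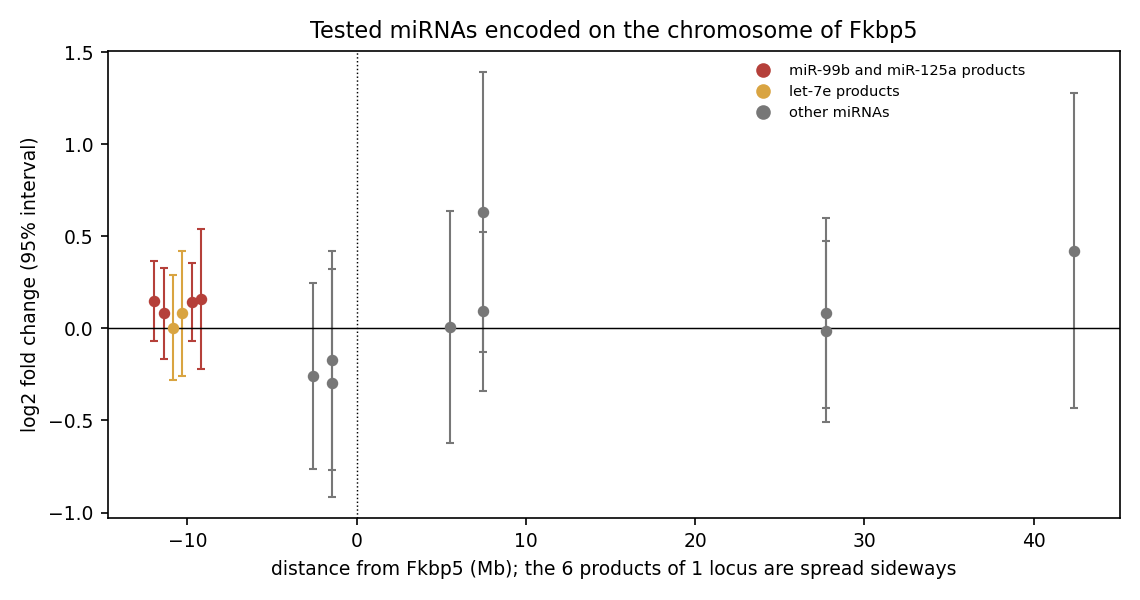
Log2 fold changes with 95% intervals of the 15 tested miRNAs encoded only on chromosome 17, by distance from Fkbp5 in Mb. The 6 products of the miR-99b/let-7e/miR-125a locus sit 10.6 Mb to one side at 0.0047 to 0.16. The 3 nearest miRNAs lie below 0 and the next 3 above 0, and every interval crosses 0.

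Ratios within a library are free of the scaling between libraries, but not of how well each sequence is ligated and amplified. Those with miR-125b-5p do not compare single loci, since it is made at more than 1. The ratios are described without a test between genotypes, since they are scores over chosen members. Of 13 ratios examined, 12 overlapped between genotypes. The exception was miR-100-5p to miR-99b-5p, which was 2.87, 2.42, 2.61 and 2.63 in wild-type replicates 1 to 4 and 2.12, 2.23, 2.32 and 2.12 in knockout replicates 1, 2, 4 and 5. Every knockout library was below every wild-type library, with a log2 difference of -0.26 (-0.30 to -0.22 with 1 library left out). As a background, 2.57% of all pairs of tested miRNAs had ratios that did not overlap, and 1.18% of the pairs among the 67 miRNAs with a mean of at least 10000, and this ratio was 1 of 13 looked at, several of which share a term. The same values gave miR-99b-5p a share of the miR-99/100 guides of 12.1% to 13.8% in wild type and 13.9% to 15.2% in the knockout.

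The other ratios between loci overlapped between genotypes. miR-99a-5p to miR-100-5p was 1.17 in wild-type replicate 1, 1.43 to 1.82 in the other wild-type libraries and 1.57 to 1.73 in the knockout. miR-125b-5p to miR-125a-5p was 1.85 to 2.29 in wild type and 1.89 to 2.24 in the knockout. Within the chromosome 17 locus miR-125a-5p exceeded miR-99b-5p 14.7-fold in wild type and 14.6-fold in the knockout, although both come from hairpins 555 bases apart. miR-125a-5p to let-7e-5p, by contrast, stayed near 1, at 1.14 and 1.25.

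Mir125b-1 and Mir125b-2 make the same guide, and their 3p strands were the values that separate them. miR-125b-1-3p exceeded miR-125b-2-3p in all 8 libraries, by 1.08- to 1.65-fold. Across the 8 libraries this ratio was compared with the ratio of the neighbouring guides, miR-100-5p to miR-99a-5p, which compares the same 2 chromosomes. Pearson's r was 0.806 (exact permutation p = 0.00704, 0.0211 adjusted over 3 such relations) and Spearman's rho 0.810 (exact permutation p = 0.0218, 0.0653 adjusted). Without wild-type replicates 1 and 3, the libraries farthest from the median of the guide ratio, r was 0.660 over 6 libraries. With 4 libraries a genotype, no value within a genotype was computed. For chromosome 9 against 17 r was 0.616 (exact permutation p = 0.121, 0.181 adjusted; rho 0.381, exact permutation p = 0.360, 0.540 adjusted), and it was -0.0056 without 2 libraries. For chromosome 16 against 17 r was -0.048 (exact permutation p = 0.888) and rho -0.14 (exact permutation p = 0.752). These relations were chosen after the values had been seen, so the permutation p-values and their adjustment over 3 relations do not cover that choice. The 8 libraries pool both genotypes, and the cause of the relation was not tested.

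**Figure D4:**
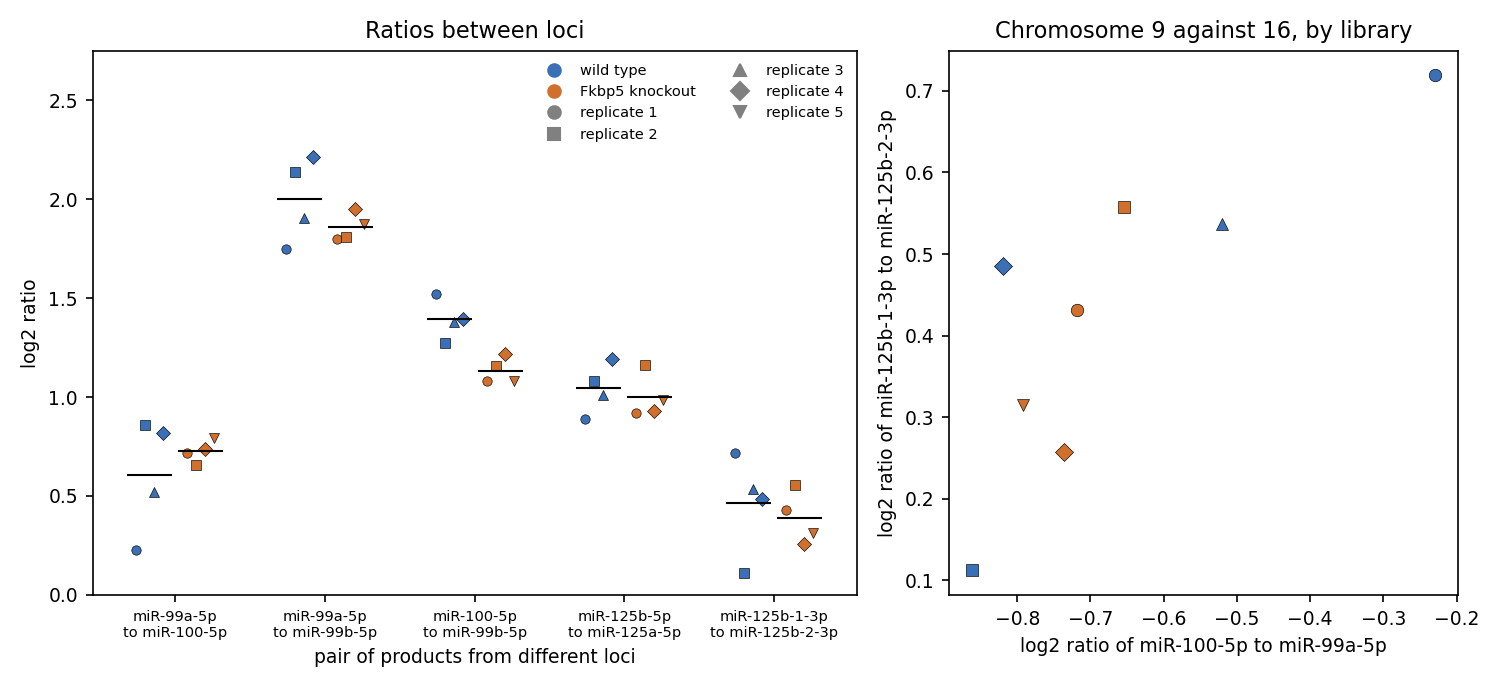
Left, log2 ratios of products from different loci in each library, with bars for group means; right, the log2 ratio of miR-125b-1-3p to miR-125b-2-3p against that of miR-100-5p to miR-99a-5p, 1 point a library. Colours and shapes give genotype and replicate, the genotypes separate only for miR-100-5p to miR-99b-5p, and wild-type replicate 1 is at the upper right.

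The hairpins differed widely in how much 3p strand remained. The Mir99a and Mir100 hairpins are shown with both mature strands in capitals, since their guides differ by 1 base and their 3p strands were both scarce, beside Mir125b-1 as a hairpin whose 3p strand was readily detected.
Mir99a: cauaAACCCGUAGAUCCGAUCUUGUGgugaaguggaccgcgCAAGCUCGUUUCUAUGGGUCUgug
Mir100: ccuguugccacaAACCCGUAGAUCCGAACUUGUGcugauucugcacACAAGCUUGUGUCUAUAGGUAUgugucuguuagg
Mir125b-1: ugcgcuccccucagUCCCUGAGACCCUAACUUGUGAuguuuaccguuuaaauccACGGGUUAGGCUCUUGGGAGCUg

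Summed over the 8 libraries, miR-99a-3p had a value of 10 beside 380111 for miR-99a-5p, and miR-100-3p 85 beside 239464 for miR-100-5p, a ratio of 2817. miR-99b was the exception in its family. Its 3p strand summed to 4218 beside 99687 for the 5p strand, a ratio of 23.6, and made up 4.06% of the products of the hairpin. The miR-125 hairpins lay between, with ratios of 220 for miR-125a, 241 for miR-125b-1 and 323 for miR-125b-2, the last 2 taken against the whole of the shared miR-125b-5p and so upper bounds for each hairpin. Among 170 hairpins with both strands at a mean of at least 20, 43 had a higher ratio of 5p to 3p than miR-99b, 20 than miR-125a, 19 than miR-125b-1 and 16 than miR-125b-2. miR-99a and miR-100 were outside this comparison because their 3p strands were too low.

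**Figure D5:**
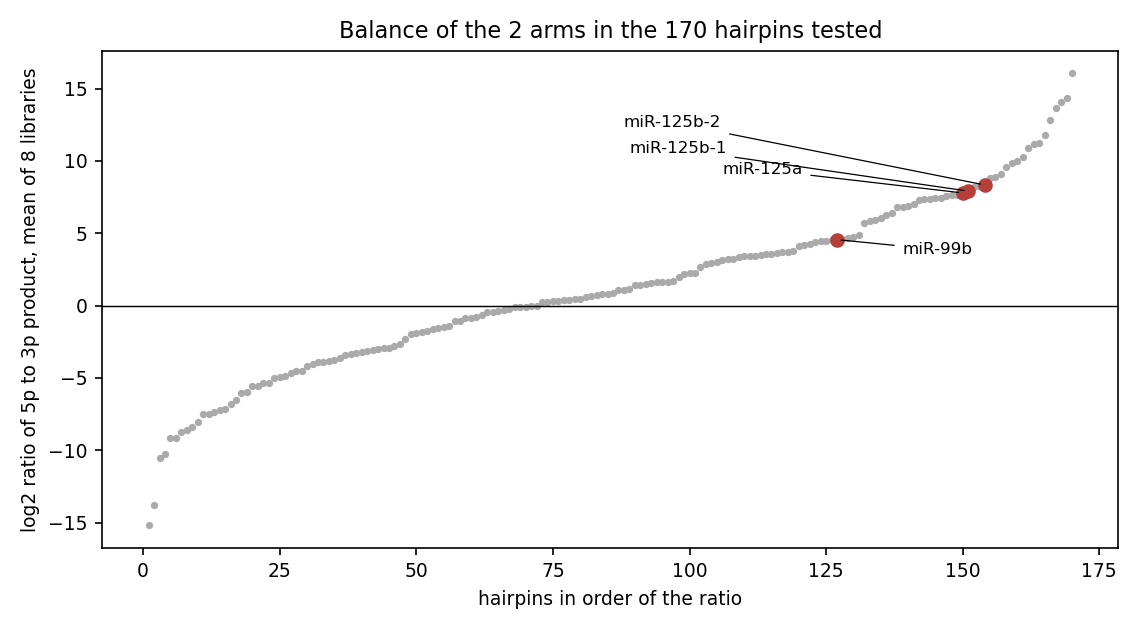
Mean log2 of 5p over 3p product in the 170 hairpins with both products at a mean of at least 20, in order (grey), with the member hairpins in red. All 4 favour the 5p product, from 4.56 for miR-99b to 8.34 for miR-125b-2, against a median of 0.85 over all 170.

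No member hairpin passed the test of strand balance between genotypes. By limma 0 of 170 hairpins had an adjusted p under 0.05 (0%), 4 had an unadjusted p under 0.05 (2.35%) and 1 did not overlap between genotypes (0.588%), none of them a member. The log2 changes of the 5p to 3p ratio were 0.07 ± 0.16 for miR-99b, -0.02 ± 0.19 for miR-125a, 0.14 ± 0.18 for miR-125b-1 and 0.07 ± 0.17 for miR-125b-2, each with an adjusted p of 0.980 by limma. They were above 0 for 3 of 4 hairpins, and 59.4% of all 170 were.

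Likeness of pattern was measured as the root mean square difference of centred log2 values over the 8 libraries. For miR-99b-5p the nearest of 598 other tested miRNAs was miR-320-3p, and the next was miR-125a-5p, its neighbour in the genome, at 0.087 against a median of 0.266 over all others. Seen from miR-125a-5p, miR-99b-5p ranked 5, after miR-485-5p and let-7d-5p at the front. miR-99a-5p was nearest to miR-194-5p and miR-330-5p, and miR-125b-2-3p from the same locus ranked 11. For miR-125b-2-3p they were miR-330-5p and miR-136-5p, for miR-100-5p miR-30a-3p and miR-1a-3p, and for miR-125b-5p miR-150-5p and miR-323-3p. For the remaining 3p strands they were miR-3475-3p and miR-28a-5p (miR-125b-1-3p), miR-543-3p and miR-221-3p (miR-99b-3p), and miR-543-5p and miR-383-5p (miR-125a-3p). Seen from miR-99b-5p, the products of its locus other than miR-125a-5p ranked from 18 (miR-99b-3p) to 309 (miR-125a-3p), with let-7e-5p at 83. Seen from miR-125a-5p, let-7e-5p ranked 27 and miR-125a-3p 166. For miR-100-5p, miR-125b-1-3p from the same locus ranked 90, and the reverse rank was 54. These distances carry no test, and neighbours were not matched for abundance or spread.

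Of 3 miRNAs related in sequence but not among the members, miR-10a-5p and miR-10b-5p had larger differences than any tested member. None of the 3 passed the adjusted test. miR-10a-5p, with 19 bases identical to miR-99a-5p in an alignment with gaps, and its sister miR-10b-5p are printed to show the likeness.
miR-10a-5p: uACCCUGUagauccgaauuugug
miR-10b-5p: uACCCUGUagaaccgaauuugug
miR-10b-5p had rescaled values of 287, 262, 250 and 149 in wild type and of 97.1, 265, 88.9 and 73.8 in the knockout, a log2 fold change of -1.005 ± 0.36. The high knockout library was replicate 2, and the other 3 were below every wild-type library. miR-10a-5p had a log2 fold change of -0.65 ± 0.24. Both had an unadjusted p under 0.05, among the 2.67% of tested miRNAs that did so in this direction, and an adjusted p of 0.967 by limma. miR-351-5p, which shares the miR-125 seed, was at -0.11 ± 0.14.

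The seeds were also set against the 3′ UTRs of the annotation, with the longest UTR taken for each of 20998 genes. The letters TACGGGT, the match to bases 2 to 8 of the miR-99/100 guides on the messenger strand, occurred in 1.105% of genes, and CTCAGGG, the match for the miR-125 guides, in 13.1%. Of 6 genes known as targets of these families that were searched, 5 held a match of this length to the guides of at least 1 family and are printed with the match in capitals. Dlg4, which encodes a postsynaptic scaffold, held neither in its UTR of 5463 bases, and 1 match to bases 2 to 7 of the miR-125 guides.
Mtor: aactgagaaaTACGGGTtttgac
Igf1r: tccagtagatTACGGGTagtcgt
Smarca5: ttctttaattTACGGGTcttcat
Lin28a: catgagcaatCTCAGGGataata
Lin28b: aagaactttgCTCAGGGaacata
Mtor encodes a growth kinase, Igf1r a growth factor receptor, Smarca5 a chromatin remodeller, and Lin28a and Lin28b block the maturation of let-7. The Fkbp5 3′ UTR of 1953 bases held neither of these 2 matches, which says only that these letters are not in that sequence. It held 2 matches to bases 2 to 7 of miR-125a-3p and 1 to those of let-7, which occurred in 35.1% and 23.5% of all genes. Among 2839 genes with a UTR of like length to that of Fkbp5 the shares were 50.1% and 32.6%. A match is a description and not a shown site, and messenger RNA was not measured. The 6 genes were picked as known targets, so their matches cannot be weighed against the shares over all genes. The median UTR of all genes was 962 bases, and a longer UTR has more room for a match.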

How the data were processed

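Small RNA libraries from 4 wild-type and 4 Fkbp5 knockout prefrontal cortex samples were used. Per the submitters' processing notes, edgeR, HTSeq 0.6.1p1, Bowtie 1.1.2 and cutadapt 1.11 were used, on mm10; no order or settings are given in the sources used here. Per the file headers the deposited values are normalized counts. All are whole numbers. Since the headers call them normalized, they were treated as a score with no fixed unit, deposited by the authors, and no count model was run. Because the values show no scaling between libraries, their depth is known only from their totals.

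Values were rescaled by a trimmed mean of log ratios (30% of ratios and 5% of levels trimmed at each end, over all miRNAs above 0), and genotypes were tested on log2(value + 1) in 599 miRNAs with limma 3.58.1 (R 4.3.3; empirical Bayes with a trend of variance on level; Benjamini-Hochberg adjusted threshold 0.05). Ratios of 5p to 3p used deposited values with 0.5 added to each. The procedure was tested on simulated data with independent noise and planted changes larger than those seen in the members. Changes as small as those of the members were not simulated. No 2 libraries were duplicates: at most 2.67% of tested miRNAs had identical values in any of 28 pairs. Named miRNAs are the 10 members, products of the same loci, sequence relatives, the 3 nearest to Fkbp5, the 2 nearest patterns of each member, and markers of neurons, oligodendrocytes, endothelium and smooth muscle, blood, microglia and leukocytes, olfactory or other epithelium and striated muscle. Names were matched to GRCm38 positions for 1623 of 1915. The members and lists were chosen with earlier results of these data known. The scaling from all miRNAs was kept after a scaling from the tested miRNAs only had also been run and its counts seen.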

Additional observations from a re-analysis of the deposited data

Results flagged for a closer look

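Of 66 groups of 4 libraries examined among the members, their neighbours and relatives and the ratios, 4 held a library set apart from the rest of its genotype. Chance flags about 1 in 20 groups, or 3.3 here. The groups are not independent, because the ratios are made from the same values. miR-99b-5p was lowest in wild-type replicate 4, at a rescaled value of 10387 against 12087 to 12231 in the other wild-type libraries. let-7e-3p, from the same locus, was lowest in wild-type replicate 1, at 243 against 338 to 357. The ratio of miR-125b-5p to miR-125b-2-3p was highest in wild-type replicate 3, at 355 against 302 to 307. miR-10b-5p was highest among the knockout libraries in replicate 2, at 265 against 73.8 to 97.1.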

How the results depend on the processing

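In 20 alternatives (other scalings, pseudocounts and filters, no trend, a replicate block and each library left out) 0 members passed an adjusted p of 0.05 by limma, the lowest being 0.763, and 0 had an unadjusted p under 0.05. Over all miRNAs 0 passed (lowest adjusted p 0.0788). The count at an unadjusted p under 0.05, 24, was 9 in the values as deposited, 50 with no filter (1330 tested), 14 with a filter relative to the library total (323 tested), 39 in the 6 libraries with shared numbers, and 18 to 35 with 1 library left out. Scaling factors from the tested miRNAs only, an alternative added after seeing the data, gave 26 and 0 adjusted.

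Replicate numbers 1, 2 and 4 occur in both genotypes, but deviations of same-numbered libraries correlated at 0.0648, -0.039 and 0.132. Of these libraries only knockout replicate 4 correlated best with its own number. The numbers were therefore not taken as pairs. With the replicate block the unadjusted count was 35, and 1 hairpin, miR-154, passed in the 5p to 3p ratio (adjusted p = 0.00854 by limma), named after its value was seen. Hairpins at an unadjusted p under 0.05, 4 in all 8 libraries, were 15 with the block, 9 in those 6 libraries without it (added after seeing the data), 2 at a mean of at least 100, and 1 to 11 with 1 library left out.

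Of 180 member values 169 kept their direction and 11 did not, none past a threshold. miR-99a-5p was at -0.0027 in the values as deposited and -0.047 to 0.075 with 1 library left out. miR-125b-2-3p was at -0.022 with or without the replicate block in the 6 libraries and -0.037 to 0.078 with 1 left out. miR-125b-1-3p was at 0.0084 with upper quartile scaling and -0.11 to 0.021 with 1 left out, and miR-125b-5p ran from -0.0026 to 0.15 with 1 left out and up to 0.16 in the other alternatives. With 1 library left out the strand ratio of miR-125a ran from -0.17 to 0.080 and that of miR-125b-2 from -0.030 to 0.12, the latter reaching 0.18 in the other alternatives. The log2 difference in miR-100-5p to miR-99b-5p ran from -0.30 to -0.22 with 1 left out, and the median of the 4 chromosome 17 members from 0.096 to 0.20 over all alternatives. The cause of these shifts was not tested. The median fold change of all tested miRNAs shifted by no more than 0.051 between scalings. With 4 libraries a genotype, changes smaller than the intervals given were not detectable. Somewhat larger changes could also be missed, since the calls were adjusted for the number of miRNAs tested and the intervals were not.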
